A study of Homo sapiens with 4 samples.

Results

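The transcripts described here are those of the translation initiation factors in MV4-11 cells, a human acute myeloid leukemia (AML) cell line with an MLL rearrangement, apart from the cap-binding protein eIF4E, its binding proteins and the eIF4F proteins EIF4G1 to EIF4G3, EIF4A1 and EIF4B. Members were all genes of the table whose symbol starts with EIF and a digit from 1 to 6, without the eIF2 kinases, EIF1AY, pseudogenes and the eIF4E and eIF4F genes just named. This left 40 of the 16490 genes with values, from 56 symbols before the exclusions. Cells carried either a control hairpin (sh-NC, 2 libraries) or a hairpin against CEBPG (sh-CEBPG#3, 2 libraries), and the comparison asks which initiation factor transcripts differ after CEBPG knockdown. CEBPG is a C/EBP family transcription factor. Both hairpins are short hairpin RNAs delivered by a lentiviral vector into cells then selected with puromycin, and the labels give no dose or time. A single CEBPG hairpin was sequenced, so an effect of the hairpin itself and an effect of lower CEBPG cannot be told apart. The labels do not state if same-group libraries stem from different infections or cultures, so the p-values may measure technical spread only.

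Initiation begins when eIF2, loaded with GTP and the initiator tRNA, joins eIF1, eIF1A, eIF3 and eIF5 on the small ribosomal subunit. The complex is brought to the mRNA by eIF4F, scans to a start codon under the control of eIF1 and eIF1A, and eIF5 then triggers GTP hydrolysis by eIF2. eIF5B joins the large subunit, which eIF6 otherwise keeps apart, and eIF2B recharges eIF2 with GTP. When a kinase phosphorylates the alpha subunit of eIF2, eIF2B is inhibited and general translation drops, which is the core of the integrated stress response. Myeloid leukemia cells, like other fast-growing cells, hold large amounts of this machinery.

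Many mRNAs of the translation machinery start with a C followed by a run of pyrimidines, the terminal oligopyrimidine feature through which growth signals control their translation. Of the 40 members, 33 had an entry in a RefSeq promoter table (GRCh38.p14), and 8 of those (24.2%) had a C followed by at least 4 C or T at the annotated start, against 4.05% of the 27195 genes in the table. The genes in that table outnumber the 16490 with values here and include noncoding ones, so these shares compare unlike sets. The 8 members are shown first because they share a feature that the choice of members did not use. Each sequence holds the 15 bases before and the 15 bases from the start site, 5′ to 3′ on the gene's own strand, with the pyrimidine run at the start in capitals.
EIF2A, chr3:150546772-150546801, plus strand: tcacccgagcggtttCTCTTTCCgggacaa
EIF2D, chr1:206612451-206612480, minus strand: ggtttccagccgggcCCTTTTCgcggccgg
EIF2S3, chrX:24054941-24054970, plus strand: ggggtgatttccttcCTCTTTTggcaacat
EIF3D, chr22:36529152-36529181, minus strand: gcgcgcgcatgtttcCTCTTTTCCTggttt
EIF3F, chr11:7987322-7987351, plus strand: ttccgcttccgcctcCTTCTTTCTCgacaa
EIF3K, chr19:38619173-38619202, plus strand: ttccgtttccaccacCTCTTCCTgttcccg
EIF3M, chr11:32583816-32583845, plus strand: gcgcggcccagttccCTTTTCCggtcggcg
EIF4A2, chr3:186783562-186783591, plus strand: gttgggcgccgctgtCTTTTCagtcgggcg

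For comparison, 4 members that differed between the groups and had no pyrimidine run at the annotated start are shown over the same window, with no capitals. They were picked from the members with an entry, as those with the strongest falls and the only rise. EIF3A, EIF2S2 and EIF3H were lower too but had no entry, and EIF1, EIF1B and EIF1AX were lower and are not shown. EIF2D and EIF3D, shown above with a run, also differed between the groups.
EIF5B, chr2:99337374-99337403, plus strand: gcgcactgagaactcacaccatatgtgtcc
EIF2B2, chr14:75002906-75002935, plus strand: gacctcgcccgccccggaagtgcaaactgt
EIF2B5, chr3:184135343-184135372, plus strand: ggtggcagcttccttgcggaagtggtgacc
EIF6, chr20:35284758-35284787, minus strand: gaaacctttttagggagtccaaggtacagt

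Values are FPKM (fragments scaled to transcript length and to the mapped fragments of the library), summed over the RefSeq transcripts of a gene, so levels can be compared between genes. The sequencing depth of the libraries is unknown because the table holds no counts, and the summed FPKM of a library ranged from 364353 to 389766. CEBPG was 30.4 and 33.6 FPKM under sh-NC and 19.2 and 17.1 FPKM under sh-CEBPG#3, without overlap. This is a log2 fold change of -0.78 (SE 0.09, adjusted p = 8.88e-05 in limma), and the knockdown mean was 56.8% of the control mean. All 10 markers fixed for MV4-11 cells were at 3.29 FPKM or more in every library, and of 10 markers of other cell types the 2 with values did not pass 0.324 FPKM. The summed level of the 10 MV4-11 markers was 941 to 1030 FPKM under sh-NC and 3488 to 3670 FPKM under sh-CEBPG#3. LYZ (lysozyme) carried most of this, at 567 and 610 FPKM against 3126 and 2982 FPKM, and the other 9 summed to 374 to 419 FPKM against 507 to 544 FPKM. MEIS1, HOXA9 and FLT3 were lower in both knockdown libraries than in both controls, and the other 7 markers were higher. The part of these shifts in the results below was not tested. In bulk RNA, fewer cells with a transcript and less of it per cell cannot be told apart.

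The factors were abundant transcripts. The median of the members tested was 58.7 FPKM over the 4 libraries against 7.51 FPKM for all 12142 genes tested, and 34 of the 38 members tested were at or above that all-gene median. In the sh-NC libraries the mean levels ran from 0.134 FPKM for the antisense transcript EIF1B-AS1 to 644 FPKM for EIF3E, a subunit of eIF3. EIF5A2 and EIF1B-AS1 stayed under a mean of 0.5 FPKM and were not tested. Ranked by level, 15 of the 40 members held the same place in both groups, and the largest move was that of EIF3A, from place 9 to place 17.

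**Figure D1:**
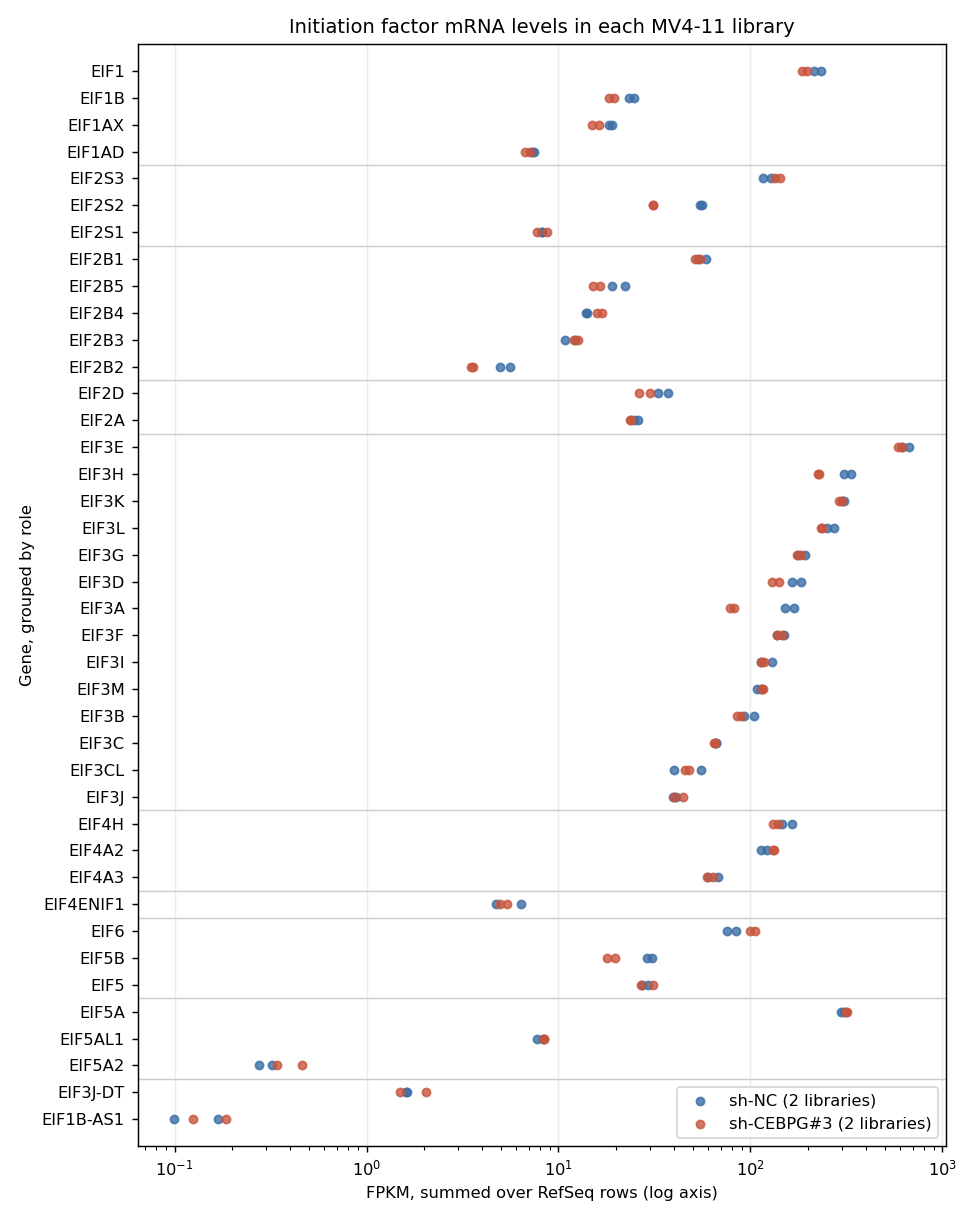
FPKM of each of the 40 members (log axis) in the 2 sh-NC libraries (blue) and the 2 sh-CEBPG#3 libraries (red), grouped by role and ordered by level within a role. Each point is 1 library, and EIF3A, EIF2S2, EIF5B and EIF3H show the red points clearly to the left of the blue points.

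After CEBPG knockdown, 11 of the 38 members tested fell and 1 rose at an adjusted p under 0.05 in limma (log2(FPKM + 1) scale, Benjamini-Hochberg over all genes tested). The 11 make up 28.9% of the members, against 23.8% of all genes tested. The 1 that rose makes up 2.63%, against 18.5% of all genes tested. No member passed the threshold of the study's methods, an unadjusted p under 0.05 with an absolute log2 fold change above 1, which 3.41% of all genes tested passed. At an unadjusted p under 0.05 in limma, with no limit on the fold change, there were 16 members (42.1%), against 50.6% of all genes tested. The median log2 fold change of the members was -0.07, and that of all genes tested was -0.04. In 17 members (44.7%) both sh-CEBPG#3 libraries were below both sh-NC libraries, as in 40.2% of all genes tested, and in 7 (18.4%) both were above, as in 31.5% of all genes tested. Under quantile normalization 17 members fell (44.7%, against 25.2% of all genes tested) and 3 rose (7.89%, against 22.2%). Under equal totals 15 fell (39.5%, against 28.9%) and 4 rose (10.5%, against 19.3%). Without the second sh-CEBPG#3 library 6 members fell (15.8%, against 16.1%). Without the second sh-NC library 4 rose (10.5%, against 19.8%), and without the first sh-CEBPG#3 library 0 rose, against 12.7% of all genes tested.

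**Figure D2:**
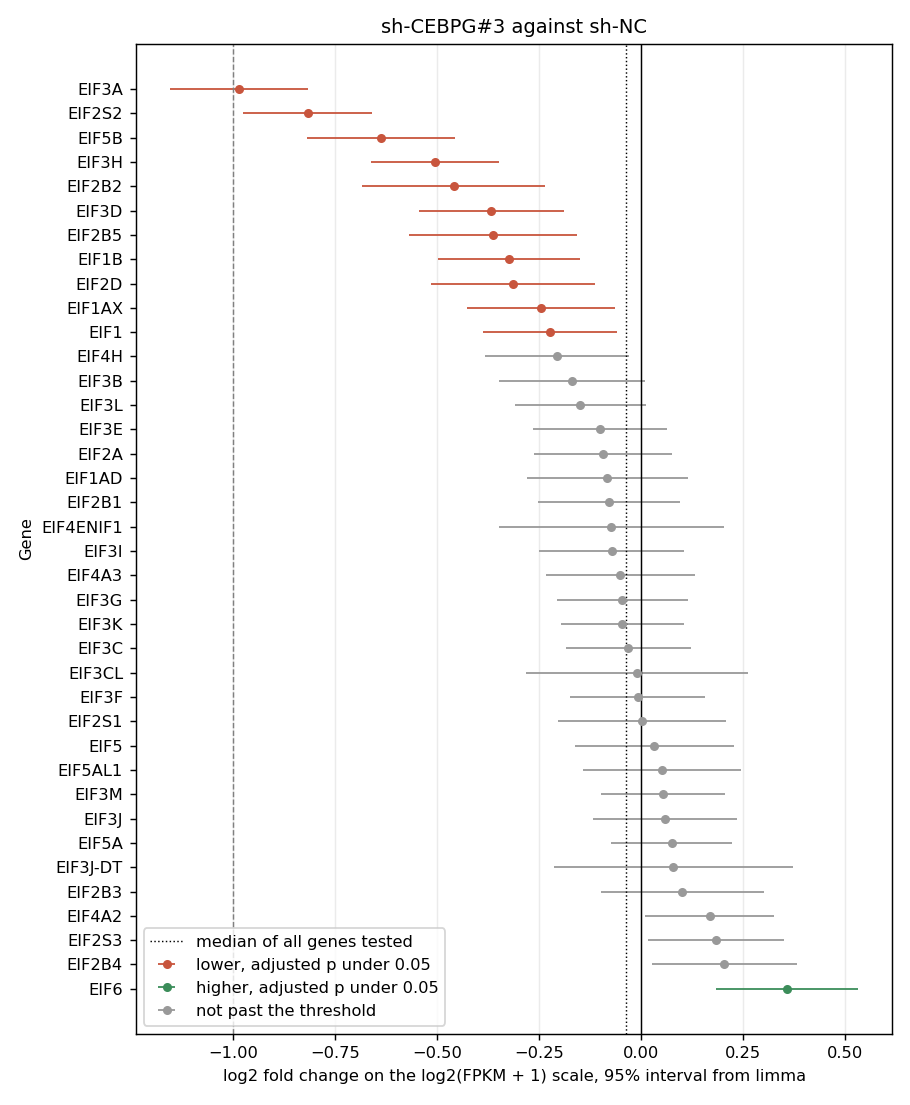
Log2 fold change of sh-CEBPG#3 against sh-NC on the log2(FPKM + 1) scale for the 38 members tested, with 95% intervals from limma. The dotted line is the median of all genes tested (-0.04) and the dashed line is a log2 fold change of -1. EIF3A lies nearest to the dashed line, and EIF6 alone rose in this fit, whereas EIF2B4 and EIF2S3 rose too under quantile normalization and equal totals.

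EIF3A, EIF2S2, EIF5B, EIF3H and EIF2B2 fell in this fit and in all 11 alternative fits. The alternatives reuse the same 4 libraries, and those with 1 library left out keep a single library in a group. They are not independent replication, and all use values summed per gene. EIF3A encodes a scaffold subunit of eIF3 (chromosome 10, 119033670 to 119080817 on GRCh38.p14). It was 152 and 169 FPKM under sh-NC and 82.0 and 78.5 FPKM under sh-CEBPG#3. The groups were far apart, and the knockdown mean was 50.1% of the control mean. The log2 fold change was -0.99 (SE 0.08, adjusted p = 7.69e-06 in limma), with a 95% interval from -1.16 to -0.82. It passed a log2 fold change of -1 in 4 of the 11 alternatives, at -1.01 under quantile normalization and under equal totals, -1.06 without the first sh-NC library and -1.02 without the first sh-CEBPG#3 library.

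EIF2S2 encodes the beta subunit of eIF2, which binds eIF5 and eIF2B (chromosome 20, 34088309 to 34112243). Its levels were 54.8 and 56.1 FPKM under sh-NC and 31.1 and 30.9 FPKM under sh-CEBPG#3. Both groups were tight, and the difference was many times the spread within either. The log2 fold change was -0.82 (SE 0.07, adjusted p = 1.61e-05 in limma). EIF5B, the GTPase that joins the ribosomal subunits (chromosome 2, 99337389 to 99401326), was 29.0 and 30.7 FPKM against 19.7 and 18.0 FPKM in the knockdown. Both knockdown libraries were lower than both controls, with a log2 fold change of -0.64 (SE 0.08, adjusted p = 0.000194 in limma).

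EIF3H, a further subunit of eIF3 (chromosome 8, 116642130 to 116766374), had the second highest level of all members in the control cells. It was 308 and 334 FPKM under sh-NC and 225 and 227 FPKM under sh-CEBPG#3, 70.3% of the control mean. The log2 fold change was -0.51 (SE 0.07, adjusted p = 0.000349 in limma). EIF2B2, the beta subunit of eIF2B, was a low transcript at 4.94 and 5.60 FPKM under sh-NC and 3.52 and 3.58 FPKM under sh-CEBPG#3. The groups did not overlap, and the log2 fold change was -0.46 (SE 0.10, adjusted p = 0.00477 in limma). Its single transcript has the same values and did not pass when tested row by row (SE 0.12, adjusted p = 0.102 in limma).

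Of the eIF1 and eIF1A group, which sets the accuracy of start codon choice, 3 of 4 members fell (75%, against 23.8% of all genes tested). EIF1 was 214 and 234 FPKM under sh-NC and 198 and 186 FPKM under sh-CEBPG#3, which gave an adjusted p of 0.0337 in limma at a log2 fold change of -0.22. Its paralog EIF1B was 23.3 and 24.6 FPKM against 19.5 and 18.4 FPKM, a log2 fold change of -0.32 (adjusted p = 0.00802). EIF1AX, which encodes eIF1A, was 18.3 and 19.0 FPKM against 16.2 and 14.9 FPKM, a log2 fold change of -0.25 (adjusted p = 0.0346). These were small differences without overlap, and 40.2% of all genes tested were also lower without overlap. EIF1 and EIF1AX lost the call without the first and without the second sh-CEBPG#3 library, without the second sh-NC library, with no filter and with a block for the replicate number (adjusted p = 0.135 and 0.0906 with the block), and EIF1B lost it without the second sh-CEBPG#3 library. EIF1 stood at 9.19 and 9.50 times the level of EIF1B under sh-NC and at 10.2 and 10.1 times under sh-CEBPG#3. EIF1AD, which shares a domain with eIF1A, had a log2 fold change of -0.08 and did not pass the test.

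Of the 3 subunits of eIF2, EIF2S2 alone passed the test in this fit, and EIF2S3 passed as higher in 3 of the alternative fits. The alpha subunit EIF2S1, the target of the stress kinases, was 8.20 and 8.19 FPKM under sh-NC and 8.74 and 7.69 FPKM under sh-CEBPG#3. These overlap, with a log2 fold change of 0.00 and a 95% interval from -0.21 to 0.21. EIF2S3, the gamma subunit that holds GTP and the initiator tRNA, was 116 and 127 FPKM against 142 and 134 FPKM. Both knockdown libraries were above both controls, but the log2 fold change of 0.18 had an adjusted p of 0.0741 in limma. It passed under quantile normalization, under equal totals and without the second sh-NC library (adjusted p = 0.0233, 0.0123 and 0.00575). The ratio of EIF2S2 to EIF2S3 was 0.473 and 0.441 under sh-NC and 0.219 and 0.230 under sh-CEBPG#3. The ratio of EIF2S2 to EIF2S1 was 6.69 and 6.85 against 3.56 and 4.02. Both ratios include the fall of EIF2S2 and carry no test.

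Of the 5 subunits of eIF2B, the exchange factor of eIF2, 2 fell (40%, against 23.8% of all genes tested) and 3 did not pass the test. Besides EIF2B2, the catalytic epsilon subunit EIF2B5 fell, at 19.0 and 22.1 FPKM under sh-NC and 15.1 and 16.4 FPKM under sh-CEBPG#3. Its log2 fold change was -0.36 (SE 0.09, adjusted p = 0.0104 in limma), a call lost without the first sh-CEBPG#3 library (adjusted p = 0.0740) and with no filter (adjusted p = 0.0530). The alpha subunit EIF2B1 was 53.2 and 59.0 FPKM against 54.4 and 51.6 FPKM, and the gamma subunit EIF2B3 was 10.8 and 12.2 FPKM against 12.7 and 12.0 FPKM. Both overlap between the groups. The delta subunit EIF2B4 was 13.9 and 14.1 FPKM against 16.8 and 15.8 FPKM, with an adjusted p of 0.0647 at a log2 fold change of 0.20, and it passed under quantile normalization and equal totals (adjusted p = 0.0138 and 0.0354). The highest subunit stood at 10.8 and 10.5 times the lowest under sh-NC and at 15.4 and 14.4 times under sh-CEBPG#3.

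EIF2D and EIF2A bring tRNA to the ribosome outside the main eIF2 route. EIF2D was 33.1 and 37.3 FPKM under sh-NC and 29.9 and 26.4 FPKM under sh-CEBPG#3. It fell, with a log2 fold change of -0.31 (SE 0.09, adjusted p = 0.0178 in limma), but not without the second sh-CEBPG#3 library (adjusted p = 0.165) or with no filter (adjusted p = 0.0719). EIF2A was 24.7 and 26.1 FPKM against 23.7 and 23.8 FPKM, a log2 fold change of -0.09 that did not pass the test. Both genes have a pyrimidine run at the start among the sequences above.

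**Figure D3:**
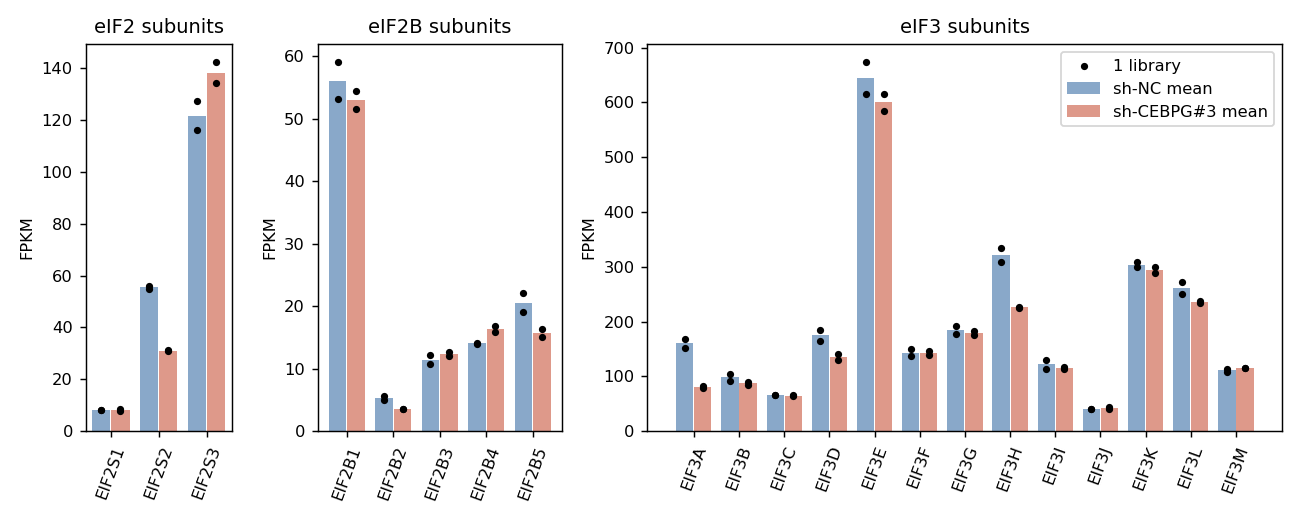
FPKM (linear axes from 0) of the subunits of eIF2, eIF2B and eIF3, with bars for the mean of 2 libraries and points for single libraries (blue sh-NC, red sh-CEBPG#3). In the first fit EIF2S2, EIF2B2, EIF2B5, EIF3A, EIF3H and EIF3D passed the test as lower. Of the subunits that did not pass, EIF2S3, EIF2B4 and EIF3M were higher without overlap, as were 31.5% of all genes tested. EIF3B, EIF3C and EIF3L were lower without overlap, as were 40.2% of all genes tested. EIF3C kept 97.8% of its control mean, and EIF3M had the opposite sign under quantile normalization. Gaps in FPKM do not follow the calls: the mean went from 5.27 to 3.55 FPKM for EIF2B2 and from 644 to 600 FPKM for EIF3E, which overlapped.

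eIF3, the large scaffold complex, had 14 members tested, counting EIF3CL, and 3 of them fell (21.4%, against 23.8% of all genes tested). Besides EIF3A and EIF3H this was EIF3D, a subunit known to contact the cap of some mRNAs, at 165 and 184 FPKM under sh-NC and 141 and 129 FPKM under sh-CEBPG#3. Its log2 fold change was -0.37 (SE 0.08, adjusted p = 0.00454 in limma), and the call was lost without the second sh-CEBPG#3 library (adjusted p = 0.0886). The other 11 members had log2 fold changes from -0.17 for EIF3B to 0.06 for EIF3J, with EIF3L at -0.15, EIF3E at -0.10, EIF3I at -0.07 and EIF3F at -0.01, and none passed the test. EIF3E remained the highest of all members, at 616 and 673 FPKM against 616 and 584 FPKM. The median log2 fold change of the 14 was -0.06. EIF3B, EIF3L and EIF3E passed as lower under quantile normalization and under equal totals (adjusted p from 0.00325 to 0.0155), EIF3I and EIF3K under quantile normalization alone (adjusted p = 0.0451 and 0.0301), and EIF3B and EIF3L also without the first sh-NC library (adjusted p = 0.00552 and 0.0136).

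Ratios within eIF3 set EIF3A and EIF3H, which fell, against subunits that did not pass the test, so they restate those falls. EIF3A stood at 1.64 and 1.61 times the level of EIF3B, another scaffold subunit, under sh-NC and at 0.914 and 0.924 times under sh-CEBPG#3. Against EIF3C it was 2.29 and 2.54 times, and 1.25 and 1.22 times. EIF3H was 2.84 and 2.95 times the level of EIF3M under sh-NC and 1.96 and 1.96 times under sh-CEBPG#3. The 2 groups did not overlap in any of these ratios, which were chosen after the values were seen and carry no test.

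EIF3C and EIF3CL are near copies on chromosome 16 (28688558 to 28735730 and 28379581 to 28426418). In GENCODE transcripts, 94.4% of the 50-base windows of EIF3C also occur in EIF3CL, so reads can be split between them in ways the table does not show. EIF3C was 66.2 and 66.3 FPKM under sh-NC and 65.4 and 64.2 FPKM under sh-CEBPG#3, and EIF3CL was 40.1 and 55.0 FPKM against 47.6 and 45.7 FPKM. Their sum of 106 and 121 FPKM against 113 and 110 FPKM overlaps between the groups. EIF3CL passed as lower without the first sh-NC library and as higher without the second (adjusted p = 0.0239 and 0.0462 in limma). These libraries hold its lowest and its highest value.

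Of the helicase group, EIF4A2 (a paralog of the eIF4F helicase), EIF4A3 (the helicase of the exon junction complex) and EIF4H (which stimulates eIF4A), none passed the test. EIF4A2 was 113 and 122 FPKM under sh-NC and 133 and 131 FPKM under sh-CEBPG#3, above without overlap but with an adjusted p of 0.0818 in limma (log2 fold change 0.17). EIF4A3 was 60.2 and 67.9 FPKM against 63.9 and 59.5 FPKM, which overlap. EIF4H was 146 and 166 FPKM against 139 and 131 FPKM, below without overlap at a log2 fold change of -0.21 (adjusted p = 0.0606), the nearest to the threshold of all members that missed it. It passed under quantile normalization, under equal totals and without the first sh-NC library (adjusted p = 0.00277, 0.00600 and 0.000793). EIF4A2 passed under equal totals and without the second sh-NC library (adjusted p = 0.0135 and 0.0158). EIF4ENIF1, the eIF4E transporter, was low and overlapped between the groups, with a log2 fold change of -0.07.

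EIF6, the factor that holds the large ribosomal subunit apart (chromosome 20, 35278906 to 35284772), was the only member that rose in this fit, while EIF2B4 and EIF2S3 rose too under quantile normalization and equal totals. It was 75.8 and 84.4 FPKM under sh-NC and 106 and 99.7 FPKM under sh-CEBPG#3, 128% of the control mean. The log2 fold change was 0.36 (SE 0.08, adjusted p = 0.00464 in limma), and without the first sh-CEBPG#3 library it was 0.31 with an adjusted p of 0.0680. EIF5, which triggers GTP hydrolysis by eIF2, was 27.2 and 29.3 FPKM against 30.9 and 27.0 FPKM, and the groups overlap. The ratio of EIF5B to EIF5 was 1.07 and 1.05 under sh-NC and 0.638 and 0.666 under sh-CEBPG#3. That of EIF6 to EIF5 was 2.79 and 2.88 against 3.43 and 3.70. These ratios include the changes of EIF5B and EIF6 and carry no test.

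EIF5A, the hypusine-carrying factor that eases peptide bond formation, was among the highest members at 296 and 306 FPKM under sh-NC and 319 and 315 FPKM under sh-CEBPG#3. Its log2 fold change of 0.07 (95% interval from -0.07 to 0.22) did not pass the test. Its close relative EIF5AL1 was 8.34 and 7.77 FPKM against 8.36 and 8.41 FPKM. Of the 50-base windows of EIF5A, 32.2% also occur in EIF5AL1, and 11.6% of those of EIF5AL1 occur in EIF5A. Reads can therefore be split between them, and the values of both are uncertain. EIF5A2 lay between 0.275 and 0.463 FPKM in the 4 libraries. EIF3J-DT, a divergent transcript beside EIF3J, was 1.62 and 1.60 FPKM against 1.49 and 2.04 FPKM and overlapped, and EIF1B-AS1 stayed under 0.186 FPKM.

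Over the 26 members that did not pass the test, log2 fold changes ran from -0.21 to 0.20 and the bounds of their 95% intervals from -0.38 to 0.38.

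Tested row by row, 4 of the 64 RefSeq transcripts of members passed at an adjusted p under 0.05 (6.25%, against 8.24% of all RefSeq rows tested). They were the transcript of EIF3A, that of EIF3H, that of EIF5B and the main transcript of EIF2S2 (NM_003908), and all were lower. The single transcripts of EIF2B2, EIF1B, EIF3D, EIF2B5, EIF1, EIF2D and EIF1AX have the same values as their genes. None of them passed row by row (adjusted p from 0.0765 for EIF1B to 0.148 for EIF1AX in limma), although the genes did. With the replicate number as a block, none of the 4 passed. The main EIF2S2 transcript was 48.8 and 53.0 FPKM under sh-NC and 28.5 and 29.1 FPKM under sh-CEBPG#3.

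Of 12 members with several transcripts tested, 6 had transcripts of opposite sign, namely EIF1AD, EIF2B3, EIF2B4, EIF3C, EIF3K and EIF3M. The main transcript of EIF3K (NM_013234) was 282 and 285 FPKM under sh-NC and 284 and 232 FPKM under sh-CEBPG#3, and a second one (NM_001308393) was 13.1 and 15.2 FPKM against 12.7 and 40.8 FPKM. The second sh-CEBPG#3 library alone was low in the first and high in the second, while the summed EIF3K level was 300.3 and 289 FPKM in the knockdown. Of EIF3C, NM_003752 was 28.8 and 49.8 FPKM and NM_001267574 was 28.0 and 15.3 FPKM under sh-NC, a difference between control libraries that the sum does not show. For EIF6, the main transcript (NM_002212) was 61.3 and 61.3 FPKM under sh-NC and 78.4 and 74.4 FPKM under sh-CEBPG#3 (adjusted p = 0.0552 in limma), and NM_181468 was 2.62 and 5.53 FPKM against 10.8 and 11.2 FPKM (adjusted p = 0.0818). Both EIF6 transcripts were higher without overlap, though neither passed alone.

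**Figure D4:**
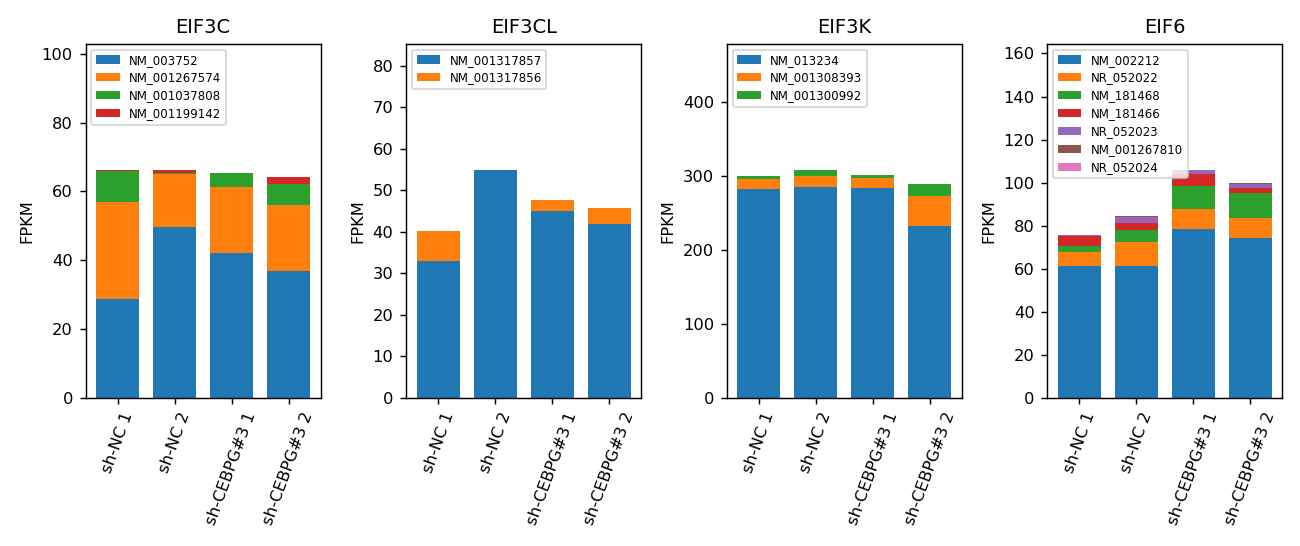
FPKM of each RefSeq transcript (stacked colors) in each of the 4 libraries for EIF3C, EIF3CL, EIF3K and EIF6, where the height of a bar is the gene's summed FPKM. The split of EIF3C and EIF3CL differs between the 2 sh-NC libraries, and the taller EIF6 bars in sh-CEBPG#3 rest mainly on NM_002212 and NM_181468.

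Of the 8 members with a pyrimidine run at the start, 2 fell in the first fit (EIF2D and EIF3D) and none rose. Of all genes tested, 23.8% fell and 18.5% rose. EIF2A, EIF2S3, EIF3F, EIF3K, EIF3M and EIF4A2 did not pass the test in the first fit. Under quantile normalization EIF2S3 rose and EIF3K fell, and under equal totals EIF2S3 and EIF4A2 rose. EIF2D did not pass with no filter. The C/EBP motif TTGCNNAA, searched on both strands over 250 bases before and 50 bases after the start, was in 3 of 33 members (EIF2B5, EIF2S3 and EIF3B, 9.09%) and in 10.5% of all promoters. The composite C/EBP and ATF motif TGATGNAA was in 0 members and in 3.67% of all promoters. CCAAT was in 14 members (42.4%, against 35.7%), the ETS motif CCGGAAG in 8 (24.2%, against 10.6%) and the E-box CACGTG in 8 (24.2%, against 7.42%). All promoters are those of the same 27195 genes, expressed here or not. EIF1B and EIF1B-AS1 lie side by side on chromosome 3. Their E-box matches, at -54 and 41 bases from their starts, appear to be the same site counted for both. The motifs were chosen with the expression values known, and a match is not a binding site. EIF2S2, EIF3A, EIF3CL, EIF3E, EIF3G, EIF3H and EIF3L had no entry matched.

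The other genes of the pathway were followed in 9 lists of 46 genes, of which 44 were tested. Of these 13 fell (29.5%, against 23.8% of all genes tested) and 3 rose (6.82%, against 18.5%). Their median log2 fold change was -0.08. Each list had at most 9 genes tested. By list, the share that fell was 40% for eIF2 phosphatase and poly(A) binding genes and 44.4% for the elongation list. It was 28.6% for scanning, reinitiation and recycling, 25% for exon junction partners, and 50% for release factors and hypusine enzymes. None of the kinases or mitochondrial factors fell. Of the 4 kinases of eIF2, 1 rose, which was EIF2AK2 (PKR, the kinase activated by double-stranded RNA and induced by interferon), at 4.18 and 4.96 FPKM under sh-NC and 19.5 and 17.3 FPKM under sh-CEBPG#3. Its log2 fold change was 1.80 (SE 0.10, adjusted p = 9.96e-07 in limma), beyond that of any member. EIF2AK1, which responds to heme, had the lowest value of the 4 at -0.11 and did not pass, except under equal totals (adjusted p = 0.0449). Of 5 eIF2 phosphatase genes 2 fell, the stress-induced regulatory subunit PPP1R15A (-0.32, adjusted p = 0.0309) and the constitutive PPP1R15B (-0.25, adjusted p = 0.0252), while the catalytic PPP1CC was highest at 0.14 and did not pass, except without the second sh-NC library (adjusted p = 0.0357). PPP1R15A did not pass with no filter, under quantile normalization or without the second sh-CEBPG#3 library (the highest adjusted p was 0.235).

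Of 7 genes of scanning, reinitiation and recycling, 2 fell. These were ABCE1, which splits ribosomes after termination (log2 fold change -0.49, adjusted p = 0.000856 in limma), and DENR, a partner in reinitiation (-0.34, adjusted p = 0.00448), and the helicase DHX29 was highest at 0.22 and passed under quantile normalization alone (adjusted p = 0.0210). Of 5 poly(A) binding proteins and partners tested, PAIP1 (-0.47, adjusted p = 0.00108 in limma) and PAIP2 (-0.26, adjusted p = 0.0388) fell. PABPC4 was highest at 0.08 without passing. Of 9 genes of the elongation list 4 fell, EEF1A2, EEF1D, EEF1E1 and EEF2K, of which EEF1E1 and EEF2K are not elongation factors themselves. The adjusted p was 0.0195 for EEF1D and 0.0458 for EEF1E1 in limma. EEF1A2 changed most, at 9.77 and 12.1 FPKM under sh-NC against 5.43 and 5.61 FPKM under sh-CEBPG#3 (-0.87, adjusted p = 0.000158 in limma). EEF2 was highest at 0.11 and passed under quantile normalization (adjusted p = 0.0499 in limma). With 1 library left out, EEF2 was at 0.04 to 0.17.

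The release factors parted, with GSPT1 (eRF3a) lower at -0.43 (adjusted p = 0.00230 in limma) and ETF1 (eRF1) higher at 0.30 (adjusted p = 0.00838). ETF1 did not pass without the first sh-CEBPG#3 library (adjusted p = 0.0831). Of the enzymes that make hypusine on eIF5A, DOHH fell, at 16.4 and 19.1 FPKM under sh-NC and 10.4 and 10.4 FPKM under sh-CEBPG#3 (-0.72, adjusted p = 0.000206), and DHPS did not pass (-0.09). Of 4 partners of EIF4A3 in the exon junction complex, MAGOHB fell (-0.45, adjusted p = 0.00271), and RBM8A was highest at 0.03 without passing. Of 6 mitochondrial factors, the elongation factor TUFM rose (0.25, adjusted p = 0.0206) and the initiation factor MTIF2 was lowest at -0.15 and passed under equal totals alone (adjusted p = 0.0346). TUFM did not pass with no filter, with the replicate block or without the first or the second sh-CEBPG#3 library (adjusted p = 0.0601, 0.0843, 0.262 and 0.0663).

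**Figure D5:**
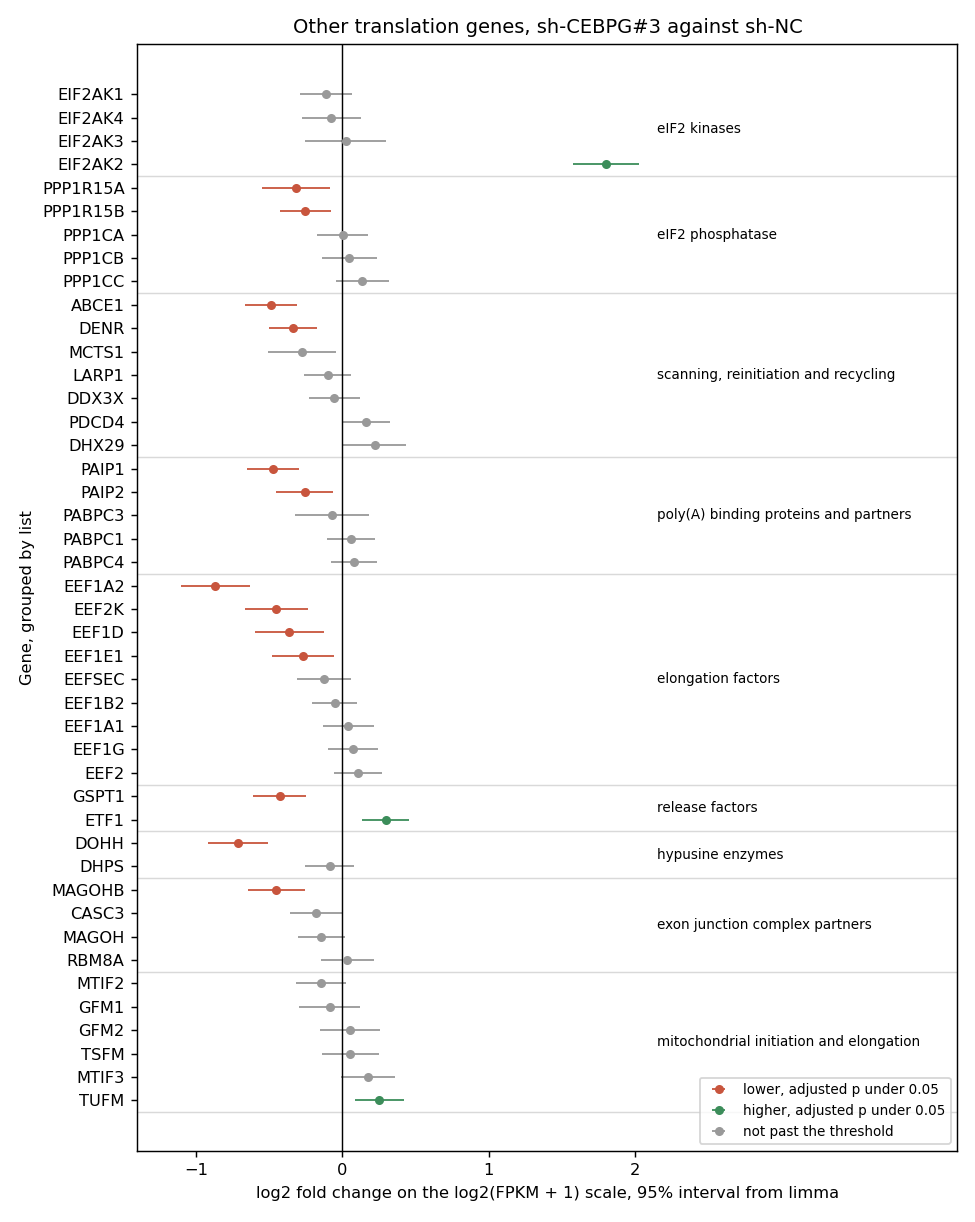
Log2 fold change of sh-CEBPG#3 against sh-NC on the log2(FPKM + 1) scale for the 44 other translation genes tested, grouped by list, with 95% intervals from limma. EIF2AK2 stands far to the right at 1.80, and EEF1A2 and DOHH lie farthest to the left.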

How the data were processed

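The 4 RNA-seq libraries came from MV4-11 cells, 2 with sh-NC and 2 with sh-CEBPG#3. Total RNA went into TruSeq libraries. The submitters' processing notes name HISAT2 2.0.5 and hg38. The authors deposited FPKM values per RefSeq transcript and library, and the program and annotation behind them are not given in the sources used here. Of 28780 rows listed, 28581 have values, and rows were summed by gene symbol. The members and gene lists were chosen with earlier results of these data known.

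The 12142 genes averaging 0.5 FPKM or more were tested on log2(FPKM + 1) with limma 3.58.1 in R 4.3.3 (trend, no block), with Benjamini-Hochberg adjustment over all of them. The pseudocount understates changes of low genes. The study's DESeq2 test takes counts and was not run: of 1027 rows under 0.06 FPKM in both controls, 0.49% shared the most common ratio (to 3 decimals), so no steps of whole reads were seen. Depth is unknown, and no interval from counts or detection floor is given. At 2 against 2, an exact permutation test (two-sided) has a lowest p of 0.333. Same-numbered libraries did not deviate together (correlation 0.0606). The fit was tested on simulated data with log2 changes of 1 and 2 in either direction. Every member changed by less than that in the first fit, so the simulation does not cover changes of this size.

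Every member was described by role. Per-library values are given for the members with the largest changes, eIF2, eIF2B and paralogs, and for some others chosen after their values were seen. Of other lists, the lowest and highest gene is named, and further called genes were added after their values were seen. These further genes (PPP1R15B, DENR, PAIP2, EEF1D, EEF1E1 and EEF2K) were not followed by name in the alternative fits. GSPT2 was not analysed here, and PAIP2B stayed under the filter. Alternatives were the replicate number as a block, quantile normalization, scaling to equal totals, pseudocounts of 0.1 or 0.01, a filter at 1 FPKM or none, and leaving out each library. Promoter windows come from RefSeq (GRCh38.p14), and the 12 printed equal hg38.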

Additional observations from a re-analysis of the deposited data

How the results depend on the processing

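The count of members that fell (11) was 7 with no filter (18.4%, against 13.5% of all genes tested), 17 under quantile normalization and 6 to 15 with 1 library left out (15.8% to 39.5%, against 16.1% to 25.1%). The count that rose (1) was 3 under quantile normalization, 4 under equal totals and 0 to 4 with 1 library left out. The count past the study's threshold (0) was 1 under quantile normalization, 1 under equal totals and 0 to 1 with 1 library left out. The median log2 fold change (-0.07) ran from -0.145 to -0.0164, and the other pathway genes called (16) from 10 to 17, with 1 library left out, lowest without the first sh-CEBPG#3 library. The latter were 22 under equal totals, 20 under quantile normalization, 12 with the replicate block and 11 with no filter. With the replicate number as a block, 9 members fell, 1 rose and 0 member transcripts passed. The block changed no other call of a member than those of EIF1 and EIF1AX. The log2 fold change of EIF3M was -0.0437 under quantile normalization and that of EIF2S1 was -0.0229 under equal totals, both against the sign of the first fit. With 1 library left out, signs turned for EIF2S1 (-0.0816 to 0.0829), EIF3CL (-0.233 to 0.213), EIF3F (-0.0706 to 0.0533), EIF3G (-0.102 to 0.00937), EIF3I (-0.168 to 0.0225), EIF3J (-0.0196 to 0.137), EIF3J-DT (-0.0651 to 0.223), EIF4A3 (-0.137 to 0.0349), EIF4ENIF1 (-0.252 to 0.106), EIF5 (-0.0629 to 0.128) and RBM8A (-0.0274 to 0.0942). Apart from EIF3CL, none of these passed with 1 library left out. Over the 11 alternatives the ranges of the adjusted p in limma were EIF1 0.000835 to 0.310, EIF1AX 0.00793 to 0.220, EIF1B 0.00184 to 0.0701, EIF2B5 7.39e-05 to 0.0740, EIF2D 0.000185 to 0.165, EIF3D 1.42e-07 to 0.0886, EIF6 1.06e-06 to 0.0680, EIF2S3 0.00575 to 0.410, EIF2B4 0.0138 to 0.288, EIF4H 0.000793 to 0.357 and EIF4A2 0.0135 to 0.354. The cause of these shifts was not tested. Over 57 genes and 11 alternatives, 557 of 627 values kept direction and side of the threshold, 25 lost the call, 27 gained it and 18 changed sign. With 2 libraries per group and FPKM alone, small differences rest on limma's shared variance. The adjusted p-values of the fits with the replicate block or with 1 library left out rest on it most, however small they are.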
